A study of Mus musculus with 36 samples.

Results

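Melatonin at 1 µM, given before lipopolysaccharide (LPS), was set against LPS alone in RAW 264.7 cells, a mouse macrophage line of wild-type genotype. The comparison takes 6 of the 36 bulk RNA sequencing libraries of the series: 3 from cells that received 1 µM melatonin for 30 min and then 10 µg/mL LPS, and 3 from cells that received 10 µg/mL LPS without melatonin. Cells were collected after 12 h. Other groups used here, 3 libraries each, are LPS after 0.1, 10 or 100 µM or 1 mM melatonin, and solvent without either agent. Melatonin without LPS at 0.1, 1, 10 and 100 µM and 1 mM, also 3 libraries each, was used as well. The question was whether this dose alters the RNA of LPS-treated macrophages.

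LPS is sensed by CD14, MD-2 and TLR4 on the macrophage surface. Signalling through the adaptors MyD88 and TRIF then turns on NF-kB, AP-1 and interferon regulatory factors, which raise cytokines, chemokines, prostaglandin and nitric oxide enzymes, and interferon-stimulated genes. Melatonin, the indole hormone of the pineal gland, has membrane receptors, MT1 and MT2, and is also described as a scavenger of oxidants and as an inducer of antioxidant enzymes. RAW 264.7 is a single transformed line, so its macrophages are a model and not primary cells.

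Totals were 6846413 to 6937872 counts in LPS + 1 µM melatonin libraries and 7021915 to 7237716 in LPS libraries, within a series range of 4203313 to 7590271. All 10 macrophage markers checked, among them Adgre1, Cd68, Csf1r, Itgam and Spi1, were detected, with summed levels of 14140 to 15110 CPM (counts scaled to library size, as edgeR gives them) in LPS + 1 µM melatonin and 13310 to 13490 CPM in LPS. Of 27 markers of other cell types, 14 had 0 counts in all 6 libraries and 23 were under 1 CPM in both groups, and their sums were 3.48 to 6.33 CPM in LPS + 1 µM melatonin and 3.49 to 12 CPM in LPS. The melatonin receptor genes Mtnr1a and Mtnr1b had 0 counts in the 6 libraries. Nothing in the labels tells separate cultures from repeat libraries of 1 culture. The p-values therefore rest on library-to-library spread, part of which may be technical. In bulk RNA, fewer cells of a kind and less RNA per cell cannot be told apart. Outside the 6 libraries, the library labelled replicate 1 of 1 µM melatonin without LPS had a macrophage marker sum of 4777 CPM, against 13140 and 13280 CPM in replicates 2 and 3, and the library labelled replicate 3 of 1 mM melatonin without LPS had 12040 CPM, against 5296 and 5165 CPM in replicates 1 and 2. Whether these labels are right was not tested.

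Of 16988 genes tested over all 36 libraries with edgeR's quasi-likelihood test and Benjamini-Hochberg adjustment, 104 passed an adjusted p of 0.05 (0.612%). With 1 µM melatonin 50 genes rose (0.294%) and 54 fell (0.318%), and 1994 genes had an unadjusted p under 0.05. Changes of at least 2-fold were seen in 45 of the 104, 20 of them higher and 25 lower. In 103 of the 104 the 3 libraries of one group lay wholly above the 3 of the other, an arrangement that 8.79% of all tested genes showed in the higher direction and 8.84% in the lower. The 104 held 53 protein-coding genes, 34 higher and 19 lower (0.45% of those tested), and 39 pseudogenes, 13 higher and 26 lower. Without both libraries whose labels are in doubt, which belong to neither group, 239 genes passed (120 higher and 119 lower), the 104 among them. That run also redid the filter and the scaling, and it tested 18347 genes. Without replicate 1, 2 or 3 of LPS + 1 µM melatonin 81, 64 and 50 genes passed, and without replicate 1, 2 or 3 of LPS 77, 68 and 57. Of the 104, 29 stayed past the threshold under every alternative run, 75 lost it under at least 1, and 0 changed direction.

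A second fit used the 6 libraries alone, so that the spread came from these groups and not from all 12. It tested 12889 genes and called 415 (3.22%), of which 179 rose (1.39%) and 236 fell (1.83%). It shared 91 calls with the fit of 36 libraries. Leaving out 1 of the 6 libraries gave 270, 173 and 172 calls in this smaller fit without replicates 1, 2 and 3 of LPS + 1 µM melatonin, and 288, 249 and 201 without replicates 1, 2 and 3 of LPS. Precision followed expression: the 95% interval of the fold change lay within 2-fold either way for 94.6% of genes over 100 CPM, for 57.6% of those at 10 to 100 CPM and for 0.707% of those at 1 to 10 CPM.

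**Figure D1:**
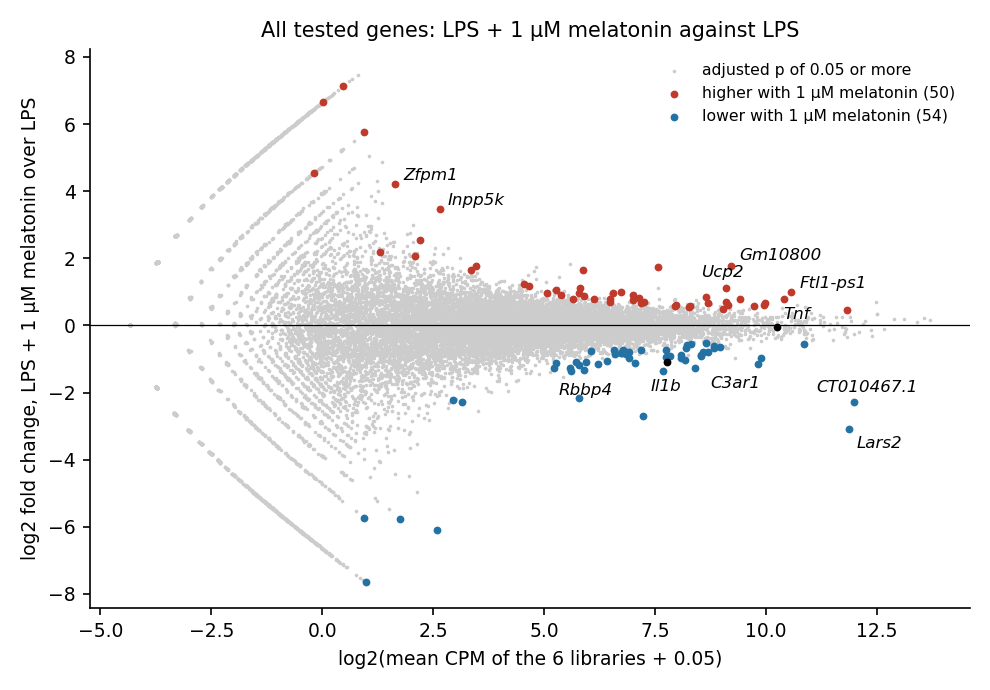
Each point is 1 of the 16988 tested genes, with log2 of the mean CPM over the 6 libraries on the x axis and the log2 fold change of LPS + 1 µM melatonin over LPS on the y axis. Red points are the 50 genes that rose, blue points the 54 that fell, and black points mark Tnf and Il1b, which did not pass the test over 36 libraries.

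The cytokines, chemokines and enzymes that LPS is known for were mostly lower with 1 µM melatonin, and whether they passed the test depended on which libraries set the spread and, for some, on the filter on low counts. Il1b, the inflammasome-processed cytokine interleukin-1 beta, had 115, 158 and 147 CPM in LPS + 1 µM melatonin libraries, against 324, 267 and 307 CPM in LPS libraries. Ptgs2, the inducible cyclooxygenase COX-2, had 451, 377 and 451 CPM in LPS + 1 µM melatonin libraries, against 723, 899 and 887 CPM in LPS libraries. For both genes the groups did not overlap.

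Il1b had a log2 fold change of -1.10 ± 0.45 (SE) and an adjusted p of 0.327 in the fit of 36 libraries. In the fit of 6 libraries its log2 fold change was -1.10 ± 0.13 (SE), with an adjusted p of 6.78e-05 that stayed past the threshold whichever of the 6 libraries was left out. Ptgs2 had -0.97 ± 0.33 and an adjusted p of 0.204 over 36 libraries, and -0.97 ± 0.10 and an adjusted p of 1.33e-05 over 6. The estimates were alike and the standard errors were not.

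Tnf, the first cytokine of the LPS response, gave no such difference. It had 1160, 1200 and 1240 CPM in LPS + 1 µM melatonin libraries, against 1250, 1210 and 1280 CPM in LPS libraries, with a log2 fold change of -0.06 ± 0.14 (SE), a 95% interval of -0.34 to 0.22 and an adjusted p of 0.939 over 36 libraries. Nfkbia, the NF-kB inhibitor that NF-kB itself induces, had 566, 601 and 661 CPM in LPS + 1 µM melatonin and 626, 551 and 623 CPM in LPS. These groups overlapped for both genes.

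Among 24 cytokines and chemokines tested, edgeR over 36 libraries called 0, 3 had an unadjusted p under 0.05, and DESeq2 also called 0. Without the filter on low counts edgeR over 36 libraries called 2 of 29 lower, Il1b (adjusted p of 0.00187) and Il1rn (0.0213). When both libraries whose labels are in doubt were left out, it called 0 of 25. The median log2 fold change of the 24 was -0.32, with 19 below 0, beside a median of 0 over all tested genes. In the fit of 6 libraries 7 of 23 fell (30.4%, beside 1.83% of all genes) and 0 rose, and without 1 library 4 to 6 fell. Csf3, the granulocyte growth factor, had 122, 126 and 93.7 CPM in LPS + 1 µM melatonin and 181, 176 and 208 CPM in LPS. Ccl5, a T cell and monocyte attractant, had 452, 507 and 465 CPM in LPS + 1 µM melatonin and 718, 611 and 751 CPM in LPS. Neither gene's groups overlapped.

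Il1rn, the natural antagonist of the interleukin-1 receptor, was lower together with the agonist, at 365, 367 and 435 CPM in LPS + 1 µM melatonin against 643, 529 and 693 CPM in LPS. In the fit of 6 libraries the adjusted p was 0.00116 for Il1rn, 0.00222 for Ccl5 and 0.00654 for Csf3, and over 36 libraries it was 0.439, 0.428 and 0.337 for the same genes. Csf3 lost its call without 2 of the 6 libraries, with an adjusted p of up to 0.0546. Il1a, Cxcl16 and Ccl4 also passed in the smaller fit, but each lost its call without at least 4 of the 6 libraries. Il6 was barely expressed, at 4.38, 2.78 and 8.72 CPM in LPS + 1 µM melatonin and 9.56, 8.73 and 16.3 CPM in LPS, and was not called in either fit.

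Of 20 inflammatory effectors tested over 36 libraries, edgeR called 0, with 3 at an unadjusted p under 0.05, and DESeq2 called 0. Without the filter on low counts edgeR called 1 of 22 lower (4.55%, beside 0.272% of all genes). When both libraries whose labels are in doubt were left out, it called 1 of 20 lower (5%, beside 0.649% of all genes). With 6 libraries 3 of 18 fell (16.7%): Ptgs2, the acute-phase protein gene Saa3 and Acod1, which makes itaconate. Saa3 had 392, 399 and 406 CPM in LPS + 1 µM melatonin, against 590, 594 and 507 CPM in LPS, with an adjusted p of 0.0041 over 6 libraries and 0.32 over 36. Acod1 lost its call without 4 of the 6 libraries, with an adjusted p of up to 0.158. Nos2, the inducible nitric oxide synthase, had 19, 12.5 and 19.7 CPM in LPS + 1 µM melatonin and 31.4, 30.9 and 27.6 CPM in LPS, with an adjusted p of 0.64 over 36 libraries.

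In NF-kB and TNF signalling, edgeR over 36 libraries called 0 of 24 genes, with 5 at an unadjusted p under 0.05, and DESeq2 called 0. When both libraries whose labels are in doubt were left out, edgeR called 1 of 24 lower (4.17%, beside 0.649% of all genes). Fitted over 6 libraries, 4 of 24 fell (16.7%): the TNF receptor gene Tnfrsf1b, the costimulatory receptor gene Cd40, the adhesion molecule gene Icam1 and the inducible NF-kB cofactor gene Nfkbiz. Without 1 library 1 to 4 of them fell. Tnfrsf1b had 159, 168 and 181 CPM in LPS + 1 µM melatonin and 240, 306 and 260 CPM in LPS, and it alone of the 4 kept its call without each of the 6 libraries (adjusted p of up to 0.0289 in the fit of 6).

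Interferon-stimulated genes also had more calls in the smaller fit. Without the filter on low counts 1 of 41 fell, Slfn2. When both libraries whose labels are in doubt were left out, 1 of 40 fell (2.5%, beside 0.649% of all genes). Over 36 libraries edgeR called 0 of 40, with 5 at an unadjusted p under 0.05, DESeq2 called 0, and the median log2 fold change was -0.32 with 32 below 0. Over 6 libraries 6 of 38 fell (15.8%) and 0 rose: Slfn2, Slfn4, Slfn5, Mx2, Irf7 and Ifi44. Slfn2, a Schlafen family gene of immune cells, had 475, 435 and 394 CPM in LPS + 1 µM melatonin, against 684, 699 and 703 CPM in LPS, with an adjusted p of 0.000199 over 6 libraries and 0.224 over 36. Without 1 library 1 to 4 of the list fell, and Slfn2 kept its call each time (adjusted p of up to 0.0035).

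Among 20 genes of LPS sensing, edgeR over 36 libraries called 0, with 0 at an unadjusted p under 0.05, and DESeq2 called 0. Cd14, the LPS co-receptor, fell in the fit of 6 libraries, with 1720, 2060 and 1880 CPM in LPS + 1 µM melatonin against 2420, 2200 and 2330 CPM in LPS (adjusted p of 0.0251 over 6 libraries and 0.518 over 36), and lost its call without 4 of the 6 libraries. Tlr4, the receptor itself, had 36.7, 25 and 39.6 CPM in LPS + 1 µM melatonin and 33.4, 51.1 and 53.8 CPM in LPS, groups that overlapped.

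Of 27 NRF2 target and antioxidant genes tested over 36 libraries, 1 rose and 0 fell, with 5 at an unadjusted p under 0.05. The 1 was Prdx6, a peroxiredoxin, at 520, 689 and 626 CPM in LPS + 1 µM melatonin against 456, 408 and 433 CPM in LPS. Its log2 fold change was 0.50 ± 0.12 (SE) with an adjusted p of 0.0382, which was 0.0819, 0.19 and 0.141 without replicates 1, 2 and 3 of LPS, and 0.278 and 0.201 without replicates 2 and 3 of LPS + 1 µM melatonin. Prdx6 also lost its call without the filter on low counts, with protein-coding genes alone and with replicate number in the model. The fit of 6 libraries called 5 of 26 higher (19.2%, beside 1.39% of all genes) and 0 lower: Prdx6, Esd, Pgd, Hmox1 and Gclm. Without 1 library 2 to 3 of them rose.

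Esd, an esterase of glutathione-dependent formaldehyde removal, had 388, 389 and 420 CPM in LPS + 1 µM melatonin and 274, 260 and 278 CPM in LPS, with an adjusted p of 0.00218 over 6 libraries and 0.298 over 36. Pgd, an NADPH-making enzyme of the pentose phosphate pathway, had 439, 414 and 426 CPM in LPS + 1 µM melatonin and 320, 297 and 308 CPM in LPS, with an adjusted p of 0.00756 over 6 libraries and 0.0717 over 36. Hmox1, the haem oxygenase often used as an NRF2 readout, had 197, 186 and 233 CPM in LPS + 1 µM melatonin and 129, 158 and 146 CPM in LPS. The groups of all 3 genes stood apart, but Hmox1 had an adjusted p of 0.0382 over 6 libraries that missed the threshold whichever of them was left out (up to 0.222), and 0.404 over 36.

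**Figure D2:**
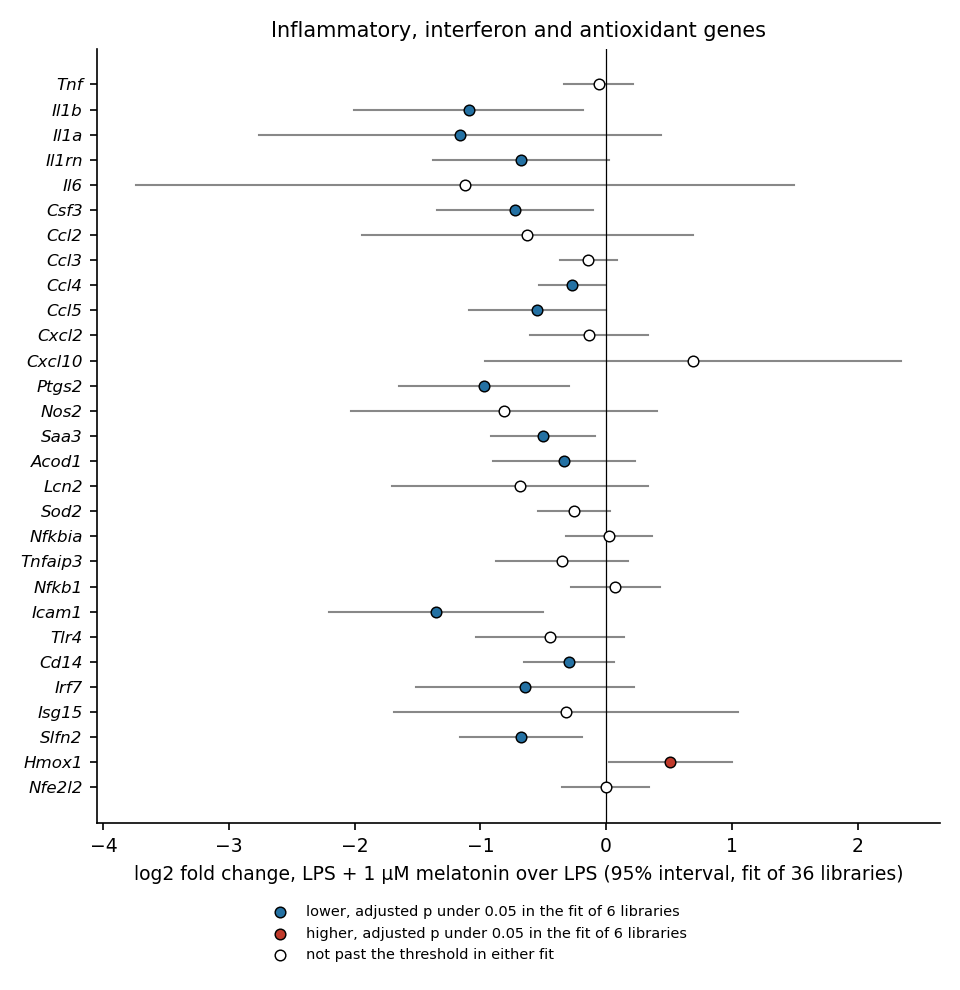
Log2 fold change of LPS + 1 µM melatonin over LPS on the x axis for named inflammatory, interferon and antioxidant genes, with 95% intervals from the fit of 36 libraries. Blue and red points passed an adjusted p of 0.05 when the 6 libraries were fitted alone, as Il1b at -1.10 and Hmox1 at 0.51 did, and open points, Tnf at -0.06 among them, passed neither there nor in the fit of 36 libraries.

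Further list members, chosen after their values were seen, kept their calls in the fit of 6 libraries without each library in turn. Csf1r, the receptor for the macrophage growth factor, had 2070, 2220 and 2510 CPM in LPS + 1 µM melatonin and 1560, 1370 and 1690 CPM in LPS (adjusted p of 0.000605 over 6 libraries, 0.278 over 36). Msr1, a scavenger receptor gene, had 285, 255 and 234 CPM in LPS + 1 µM melatonin and 474, 470 and 452 CPM in LPS (adjusted p of 6.37e-05 over 6 libraries, 0.436 over 36). Of the macrophage identity list as a whole, edgeR over 36 libraries called 0 of 23, with 3 at an unadjusted p under 0.05, DESeq2 called 0 of 22, and the fit of 6 libraries called 2 of 20 higher and 2 lower.

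Jun, a subunit of AP-1, had 114, 114 and 112 CPM in LPS + 1 µM melatonin and 241, 186 and 181 CPM in LPS (adjusted p of 0.0015 over 6 libraries, 0.198 over 36). Ldha, the lactate dehydrogenase of glycolysis, had 514, 506 and 575 CPM in LPS + 1 µM melatonin and 339, 335 and 355 CPM in LPS (adjusted p of 0.000462 over 6 libraries, 0.0585 over 36). Hspa5, the chaperone BiP of the endoplasmic reticulum, had 3160, 3230 and 3150 CPM in LPS + 1 µM melatonin and 4010, 4100 and 4030 CPM in LPS (adjusted p of 0.000592 over 6 libraries, 0.0802 over 36). Groups were apart for each of the 3 genes. Their lists had 0 calls by edgeR over 36 libraries, among 19 immediate early, 22 glycolysis and hypoxia, and 29 unfolded protein and stress genes. DESeq2 called 1 immediate early and 1 glycolysis gene higher, and 2 stress genes lower. In the fit of 6 libraries 1 immediate early gene fell, 2 glycolysis genes rose, and of the stress genes 2 rose and 3 fell.

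Lists of other processes gave few calls or none over 36 libraries. For circadian and melatonin pathway genes edgeR called 0 of 21, with 2 at an unadjusted p under 0.05, and DESeq2 called 0 of 20. For cholesterol synthesis edgeR called 0 of 22, with 2 at an unadjusted p under 0.05, and DESeq2 called 0. For inflammasome genes edgeR called 0 of 14, with 0 at an unadjusted p under 0.05, and DESeq2 called 0. Genes of DNA replication had a median log2 fold change of 0.32, with 19 of 28 above 0, yet edgeR called 0, with 7 at an unadjusted p under 0.05, and DESeq2 called 0. edgeR called 1 of 28 higher without the filter on low counts and 2 of 28 without both libraries whose labels are in doubt. The fit of 6 libraries called 2 of 26 higher (7.69%, beside 1.39% of all genes), Pcna (adjusted p of 0.0289) and Mcm3 (0.0396). Each kept its call in only 1 of the 6 fits that left out 1 library.

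The LPS response as a whole was measured on genes chosen from the libraries at 0.1, 10 and 100 µM melatonin, with against without LPS. The means behind that choice left out the 6 libraries compared here, which entered it only through the shared filter, scaling and spread. Of 1116 genes that LPS raised at least 2-fold at those doses, 6 rose (0.538%) and 4 fell (0.358%) with 1 µM melatonin over 36 libraries, with a median log2 fold change of -0.02. Of 1474 that LPS lowered, 14 rose (0.95%) and 11 fell (0.746%), with a median of 0, beside 0.294% higher and 0.318% lower over all genes. For the 489 genes raised at least 4-fold the median log2 fold change was -0.13. In the fit of 6 libraries, 40 of 1012 raised genes rose (3.95%) and 56 fell (5.53%), and of 1083 lowered genes 7 rose (0.646%) and 18 fell (1.66%), beside 1.39% higher and 1.83% lower over all genes.

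The mean log2 CPM of LPS-raised genes less that of LPS-lowered genes was 2.492, 2.492 and 2.506 in LPS + 1 µM melatonin libraries, against 2.533, 2.520 and 2.513 in LPS libraries. Group means were 2.497 ± 0.008 in LPS + 1 µM melatonin and 2.522 ± 0.010 in LPS (SD, n = 3 each), and the groups did not overlap. The gap was small beside the distance to cells without LPS, where the same measure was -0.728 ± 0.131 with 1 µM melatonin and -0.749 ± 0.026 in solvent (SD, n = 3 each). With LPS after 0.1, 10 and 100 µM and 1 mM melatonin the means were 2.852, 2.644, 2.433 and 1.227. Those at 0.1 and 10 µM thus lay above LPS alone, by more than 1 µM lay under it. Libraries at 0.1, 10 and 100 µM were also used to choose the genes.

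**Figure D3:**
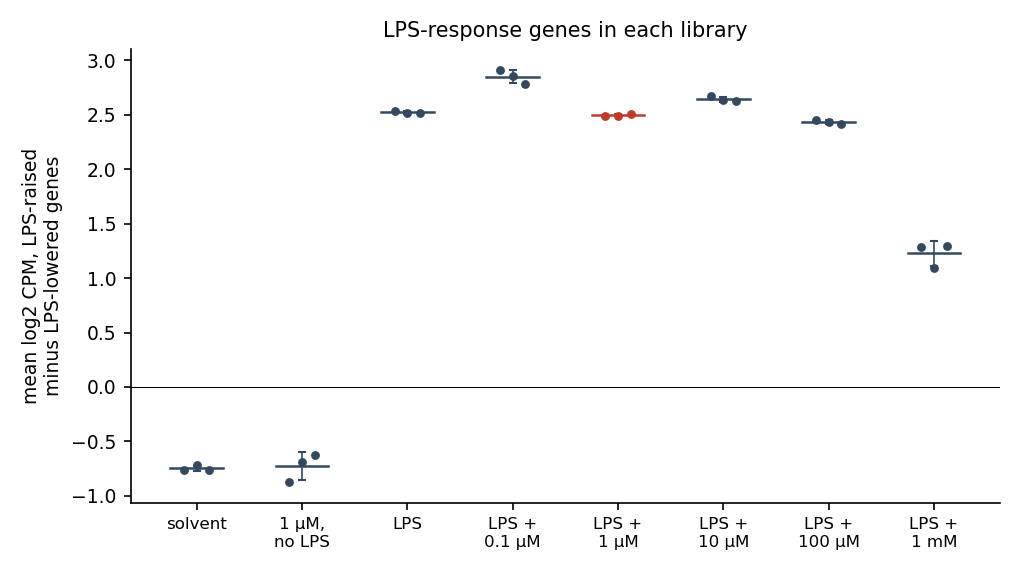
Mean log2 CPM of LPS-raised genes minus that of LPS-lowered genes on the y axis, with 1 point per library and bars at the mean ± SD of 3 libraries. LPS + 1 µM melatonin at 2.497 (red) lay just under LPS at 2.522. LPS with 100 µM and 1 mM melatonin also lay under it, at 2.433 and 1.227, while 0.1 and 10 µM lay above it, at 2.852 and 2.644.

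Genes that fell past the threshold over 36 libraries included surface receptors and chromatin and nucleolar proteins. Receptor and chromatin genes also rose past it, Cxcr3, Ptpro and Hist1h1c among them. C3ar1, the receptor for the complement fragment C3a, had 214, 184 and 184 CPM in LPS + 1 µM melatonin, against 312, 376 and 374 CPM in LPS (log2 fold change -0.87 ± 0.15, adjusted p of 0.00103). Rbbp4, a histone-binding subunit of chromatin-modifying complexes, had 34.7, 33.2 and 33.8 CPM in LPS + 1 µM melatonin, against 73.1, 98.4 and 82.2 CPM in LPS (-1.32 ± 0.23, adjusted p of 0.00103). Both kept their calls under every alternative run, and neither had overlapping groups.

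Lilrb4a, an inhibitory immunoglobulin-like receptor gene, and Rnf213, an interferon-inducible ubiquitin ligase gene, were chosen after their values were seen. Lilrb4a had 330, 262 and 257 CPM in LPS + 1 µM melatonin, against 458, 491 and 509 CPM in LPS (log2 fold change -0.78 ± 0.14, adjusted p of 0.00241). Of its 50-base stretches 47.2% also occur in other annotated genes, and 26.1% in its paralog Lilr4b (-0.27, adjusted p of 0.567). Rnf213 had 321, 324 and 256 CPM in LPS + 1 µM melatonin, against 461, 560 and 549 CPM in LPS (-0.80 ± 0.16, adjusted p of 0.00494), but the adjusted p was 0.077 without replicate 3 of LPS + 1 µM melatonin.

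Heatr1, needed for making ribosomal RNA, had 50.4, 38 and 30.6 CPM in LPS + 1 µM melatonin, against 113, 81.7 and 58.1 CPM in LPS (-1.09 ± 0.23, adjusted p of 0.012). It lost its call without replicate 1 of LPS (0.161) and without replicates 2 and 3 of LPS + 1 µM melatonin (0.0807 and 0.169). Heatr1 was the 1 called gene of 22 ribosome biogenesis genes (4.55%) over 36 libraries. In the fit of 6 libraries 1 of the 22 rose, Dkc1 (adjusted p of 0.031), and 2 fell. Hspa8, the constitutive cytosolic chaperone, had 229, 259 and 236 CPM in LPS + 1 µM melatonin, against 312, 413 and 354 CPM in LPS (-0.58 ± 0.14, adjusted p of 0.045). It was the 1 called gene of 14 heat shock genes (7.14%), and its adjusted p was 0.248 and 0.119 without replicates 2 and 3 of LPS, and 0.166, 0.0908 and 0.208 without replicates 1, 2 and 3 of LPS + 1 µM melatonin. Its call was also lost without scaling beyond library totals, without the filter on low counts and with protein-coding genes alone. Of the 50-base stretches of Hspa8, 39.4% also occur in other annotated genes.

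Nkrf, the gene of an NF-kB repressing factor of the nucleolus, had 20.1, 15.6 and 30.6 CPM in LPS + 1 µM melatonin, against 52, 51.4 and 55.2 CPM in LPS (-1.26 ± 0.31, adjusted p of 0.0431). Its adjusted p was 0.0859, 0.0912 and 0.121 without replicates 1, 2 and 3 of LPS, and 0.149 and 0.249 without replicates 1 and 2 of LPS + 1 µM melatonin. Nkrf also lost its call with replicate number in the model. Dido1, a PHD-finger gene, fell by 1.08 ± 0.24 on the log2 scale with an adjusted p of 0.0169. Its call was lost without replicate 1 or 3 of LPS (0.0831 and 0.117) and without replicate 2 or 3 of LPS + 1 µM melatonin (0.157 and 0.0967).

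The protein-coding genes with the steepest rise among those of at least 5 CPM were Zfpm1 and Inpp5k. Zfpm1 encodes FOG-1, a zinc-finger partner of GATA factors. Inpp5k encodes a phosphatase that removes the 5-phosphate of membrane phosphoinositides. Their promoters are shown because these are the largest rises among called genes of at least 5 CPM in LPS + 1 µM melatonin that have an ordinary gene name. They come from RefSeq (GRCm38.p6), run from 250 bases before to 50 after the gene's start, lie at chr8:122281891-122282190 on the plus strand and chr11:75630770-75631069 on the plus strand, and carry capitals nowhere because no searched motif was found in them.
Zfpm1: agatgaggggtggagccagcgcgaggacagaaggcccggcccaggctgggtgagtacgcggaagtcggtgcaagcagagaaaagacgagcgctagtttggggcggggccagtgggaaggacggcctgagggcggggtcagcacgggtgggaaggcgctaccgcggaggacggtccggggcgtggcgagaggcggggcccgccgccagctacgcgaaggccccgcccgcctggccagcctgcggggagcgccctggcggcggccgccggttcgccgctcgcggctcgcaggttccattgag
Inpp5k: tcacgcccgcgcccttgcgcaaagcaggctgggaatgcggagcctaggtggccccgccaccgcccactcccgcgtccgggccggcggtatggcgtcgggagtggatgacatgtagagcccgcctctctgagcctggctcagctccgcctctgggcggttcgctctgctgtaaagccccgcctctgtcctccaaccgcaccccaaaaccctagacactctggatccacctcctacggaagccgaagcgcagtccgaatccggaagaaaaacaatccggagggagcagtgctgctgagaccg

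The motifs searched on both strands were the NF-kB consensus, AP-1 (TGANTCA), the core of the interferon-stimulated response element (GAAANNGAAA) and the ROR half-site (AGGTCA). Neither promoter held any of them, nor did those of Lars2 and Cxcr3. Over 32851 promoters of the same length, 8.5% held the NF-kB consensus, 7.8% AP-1, 3.4% the response element core and 16.3% the half-site. Of the 104 called genes 43 had a promoter in the RefSeq table.

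Zfpm1 had 5.58, 5.25 and 6.81 CPM in LPS + 1 µM melatonin, against 0, 0.437 and 0.463 CPM in LPS (log2 fold change 4.21 ± 0.81, adjusted p of 0.00171). The LPS libraries held 6 counts in all and the LPS + 1 µM melatonin libraries 114, and the adjusted p was 0.0633 in the fit of 6 libraries. Inpp5k had 4.07, 17.5 and 12.5 CPM in LPS + 1 µM melatonin, against 0.758, 0.728 and 1.54 CPM in LPS (3.47 ± 0.60, adjusted p of 0.00144), and kept its call under every alternative run. Its libraries with melatonin spread widely but none overlapped with LPS.

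Signalling genes of low abundance also rose. Ptpro, a receptor-type tyrosine phosphatase gene, had 19, 17.9 and 13.8 CPM in LPS + 1 µM melatonin, against 1.97, 7.13 and 5.86 CPM in LPS (1.76 ± 0.36, adjusted p of 0.00732, but 0.0959 without replicate 1 of LPS). Wee1, the kinase that holds back CDK1 before mitosis, had 8.15, 8.96 and 3.33 CPM in LPS + 1 µM melatonin, against 1.21, 2.04 and 1.54 CPM in LPS (2.08 ± 0.42, adjusted p of 0.00597). Its adjusted p was 0.0577 without replicate 1 of LPS and 0.0632 without replicate 2 of LPS + 1 µM melatonin. The fit of 6 libraries called neither gene, with an adjusted p of 0.0625 for Ptpro and 0.227 for Wee1.

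Cxcr3, the receptor for interferon-induced chemokines, had 10.6, 5.41 and 7.45 CPM in LPS + 1 µM melatonin, against 1.21, 0.582 and 2.16 CPM in LPS (2.55 ± 0.59, adjusted p of 0.0253). It lost its call without replicate 1 or 2 of LPS (0.12 and 0.185) and without replicate 1 or 3 of LPS + 1 µM melatonin (0.123 and 0.0769). Cxcr3 was also not called without the filter on low counts or in the fit of 6 libraries. Nudt5, an ADP-ribose hydrolase gene, rose by 1.25 on the log2 scale with an adjusted p of 0.0362, which ranged up to 0.176 without replicate 1 of LPS and missed the threshold without 5 of the 6 libraries. Nudt5 also lost its call with protein-coding genes alone. Minpp1, an inositol polyphosphate phosphatase gene, rose by 1.04 with an adjusted p of 0.0284, lost without replicate 1 or 2 of LPS (0.139 and 0.182) and without replicate 2 or 3 of LPS + 1 µM melatonin (0.0634 and 0.246). Of the 50-base stretches of Minpp1, 28.5% also occur in other annotated genes.

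Some better expressed genes rose as well. Ucp2, a carrier of the mitochondrial inner membrane, and Gltp, which moves glycolipids between membranes, were chosen after their values were seen. Ucp2 had 685, 655 and 679 CPM in LPS + 1 µM melatonin, against 413, 425 and 418 CPM in LPS (0.69 ± 0.12, adjusted p of 0.00171). Gltp had 196, 145 and 200 CPM in LPS + 1 µM melatonin, against 102, 87.5 and 115 CPM in LPS (0.83 ± 0.15, adjusted p of 0.00241). Both kept their calls under every alternative run, with groups apart.

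Sdhd, the membrane anchor of succinate dehydrogenase and the 1 called gene of 25 respiratory chain genes (4%), had 282, 312 and 314 CPM in LPS + 1 µM melatonin, against 211, 197 and 187 CPM in LPS (0.61 ± 0.13, adjusted p of 0.00765). Its adjusted p was 0.0516 and 0.0813 without replicates 2 and 3 of LPS, and 0.0535 and 0.0707 without replicates 2 and 3 of LPS + 1 µM melatonin. The list's median log2 fold change was 0.01, with 12 below 0. Of 25 lysosome genes, with a median of 0.02 and 12 below 0, 2 rose (8%): Ctsa, a lysosomal carboxypeptidase gene, and Atp6v0d1, of the proton pump. Ctsa had 194, 182 and 162 CPM in LPS + 1 µM melatonin, against 116, 130 and 95.5 CPM in LPS (0.66 ± 0.14, adjusted p of 0.0129). Atp6v0d1 had 189, 175 and 200 CPM in LPS + 1 µM melatonin, against 107, 129 and 111 CPM in LPS (0.70 ± 0.16, adjusted p of 0.0171). Ctsa lost its call without replicate 1 or 3 of LPS (0.0552 and 0.175) and without replicate 1 or 2 of LPS + 1 µM melatonin (0.0906 and 0.0653). Atp6v0d1 lost its call without replicate 1 or 3 of LPS (0.114 and 0.106) and without replicate 1 or 3 of LPS + 1 µM melatonin (0.0607 and 0.133).

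Hist1h1c, a linker histone gene, had 76.1, 80 and 75.1 CPM in LPS + 1 µM melatonin, against 33.7, 38.6 and 35.3 CPM in LPS (1.10 ± 0.23, adjusted p of 0.00756), and kept its call under every alternative run. Tpcn1, an endolysosomal cation channel gene, had 36.1, 34.3 and 35.2 CPM in LPS + 1 µM melatonin, against 17.4, 18.9 and 10.3 CPM in LPS (1.17 ± 0.24, adjusted p of 0.0081, but 0.121 without replicate 3 of LPS). Capn2, a calcium-activated protease gene chosen after its values were seen, had 129, 127 and 118 CPM in LPS + 1 µM melatonin, against 70.5, 51.8 and 68.5 CPM in LPS (0.97 ± 0.19, adjusted p of 0.00389, but 0.0588 without replicate 2 of LPS).

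**Figure D4:**
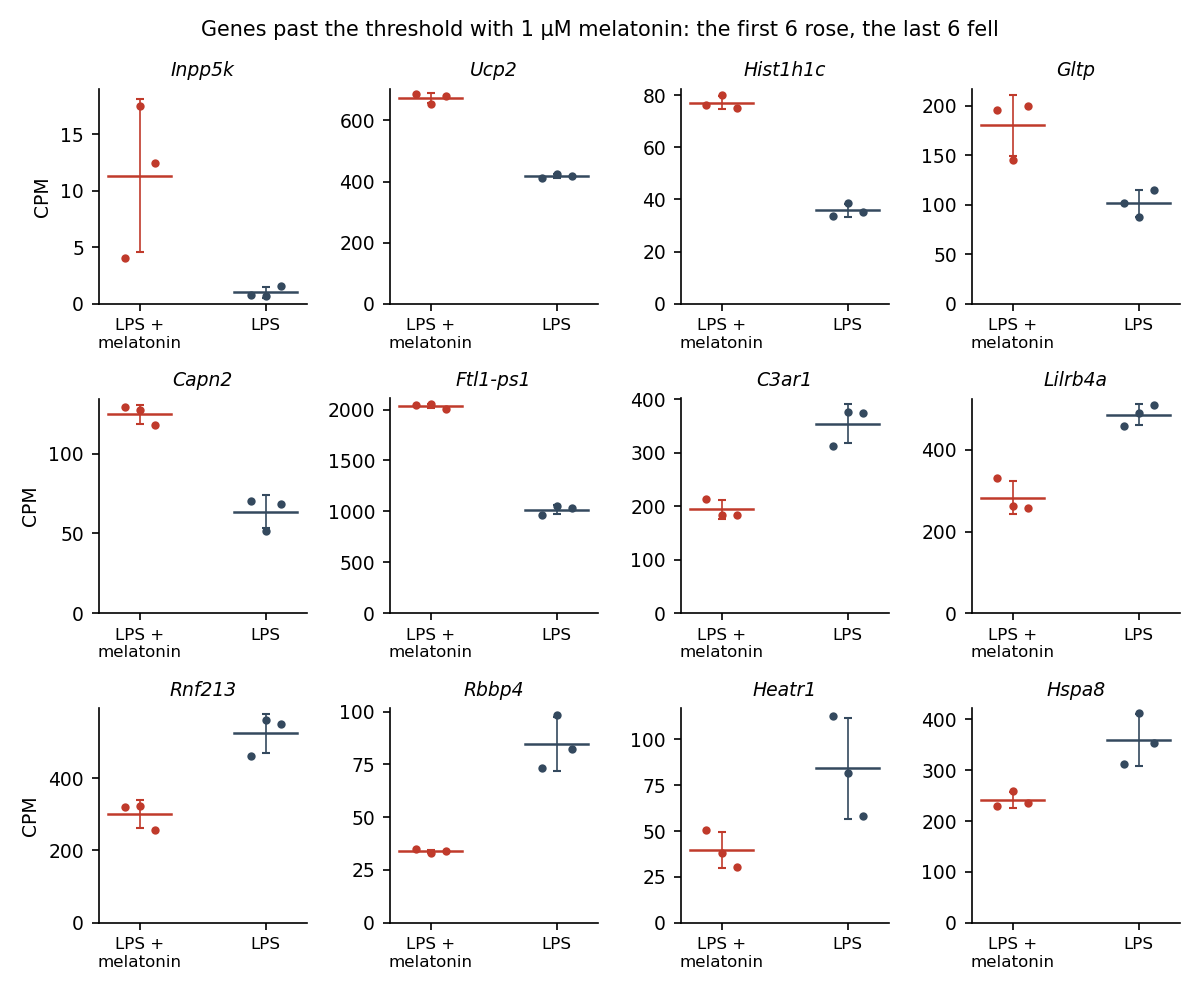
CPM on the y axis in the 3 libraries of LPS + 1 µM melatonin (red) and of LPS (dark blue) for 12 called genes, 1 panel each, with bars at the mean ± SD. Each of the 12 had non-overlapping groups, from Inpp5k at 11.4 against 1.01 CPM to Hspa8, the least changed of those that fell.

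In 8 called genes 1 group held 3 counts or fewer, and their fold against LPS is given, if at all, as a bound. Rubcnl, an autophagy regulator gene, had 52 counts over the 3 LPS + 1 µM melatonin libraries and 0 in LPS, at least 17.9-fold higher against a floor of 3 counts over the group. Fer1l5 had 0 counts in LPS + 1 µM melatonin and 76 in LPS, at least 25-fold lower. These genes, Alox5 (31 counts against 1) and E2f7 (1 count against 74) were chosen after their values were seen.

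Ferritin light chain sequences rose. Ftl1-ps1, a ferritin light chain copy annotated as protein-coding, had 2040, 2050 and 2010 CPM in LPS + 1 µM melatonin, against 969, 1050 and 1030 CPM in LPS (1.00 ± 0.14, adjusted p of 9.96e-05), and kept its call under every alternative run. Ftl2-ps, a related copy chosen after its values were seen, had 861, 848 and 865 CPM in LPS + 1 µM melatonin, against 538, 506 and 453 CPM in LPS (0.78 ± 0.16, adjusted p of 0.00552, but 0.0583 without replicate 3 of LPS). Ftl1 itself, the iron-storage subunit, had 137, 116 and 136 CPM in LPS + 1 µM melatonin and 116, 96.5 and 95.1 CPM in LPS, with a log2 fold change of 0.34 and an adjusted p of 0.474. Of the 50-base stretches of Ftl1-ps1 57.6% also occur in Ftl1, and 71.2% of those of Ftl2-ps occur in Ftl1-ps1, so which of these loci the reads came from is uncertain.

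The same holds for other pseudogenes. Of the 39 called, 20 shared more than 50% of their 50-base stretches with other annotated genes, against 3 of the 53 called protein-coding genes. For 36 of them a protein-coding gene with shared sequence was tested, and 2 of those partners were themselves called. Ptges3-ps (-0.98, adjusted p of 0.00555) shared 100% of its stretches with Ptges3, whose log2 fold change was -0.43 with an adjusted p of 0.237. Pgk1-rs7 (-0.92, adjusted p of 0.00103) shared 100% with Pgk1, which went the other way at 0.34 with an adjusted p of 0.431. Rab7-ps1 (-1.16, adjusted p of 0.00625, but 0.0578 without replicate 3 of LPS + 1 µM melatonin) shared 53.2% with Rab7, at 0.03 with an adjusted p of 0.982. Glud-ps fell by 0.84 on the log2 scale with an adjusted p of 0.0415, which missed the threshold without 5 of the 6 libraries (up to 0.229, without replicate 3 of LPS + 1 µM melatonin).

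The steepest fall among well expressed genes was in Lars2, the mitochondrial leucyl-tRNA synthetase gene on chromosome 9, and in annotated ribosomal RNA. Lars2 had 768, 796 and 782 CPM in LPS + 1 µM melatonin, against 6300, 5450 and 8260 CPM in LPS (log2 fold change -3.09 ± 0.30, adjusted p of 1.11e-07). CT010467.1, an rRNA gene at chr17:39846353-39848827 (mm10), had 1410, 1310 and 1410 CPM in LPS + 1 µM melatonin, against 6600, 5850 and 7810 CPM in LPS (-2.29 ± 0.26, adjusted p of 7.64e-07). Gm15564, a locus on chromosome 16, had 40.7, 35.2 and 44.7 CPM in LPS + 1 µM melatonin, against 232, 189 and 362 CPM in LPS (-2.70, adjusted p of 0.000188). Groups were far apart at all 3 loci.

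Counts on rRNA genes made up 0.130% ± 0.00656 of each library in LPS + 1 µM melatonin, the lowest mean of the 12 groups, and 0.631% ± 0.0839 in LPS (SD, n = 3 each). Libraries spanned 0.123 to 0.136% in LPS + 1 µM melatonin and 0.557 to 0.722% in LPS. The rRNA share thus moved with the fall in Lars2, and its part in that fall was not tested.

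A set of 9 repeat-like loci that share sequence was chosen from genes called higher at 1 µM than at other doses under LPS. Against LPS alone, 3 of the 9 rose past the threshold. Gm10800, at chr2:98666547-98667301 (mm10), had 849, 966 and 930 CPM in LPS + 1 µM melatonin, against 278, 263 and 262 CPM in LPS (1.77 ± 0.35, adjusted p of 0.00556). Gm21738, on chromosome 14, had 283, 290 and 304 CPM in LPS + 1 µM melatonin, against 76.5, 92.3 and 92.5 CPM in LPS (1.75 ± 0.32, adjusted p of 0.00244). Gm26870, at chr9:3000282-3038313, had 78.3, 99.8 and 89.5 CPM in LPS + 1 µM melatonin, against 29.6, 22 and 33.5 CPM in LPS (1.65 ± 0.37, adjusted p of 0.0203). The first 2 kept their calls under every alternative run. Gm26870 lost its call without replicate 1, 2 or 3 of LPS (0.0712, 0.121 and 0.0518) and without replicate 2 or 3 of LPS + 1 µM melatonin (0.0843 and 0.0707).

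The other 6 of the 9 loci, linked to these 3 by shared sequence, were not called against LPS, with log2 fold changes of 1.30 (Gm10722) to 1.82 (Gm11168) and adjusted p-values of 0.0617 (Gm11168) to 0.196 (Gm10722). Levels were higher still in 100 µM melatonin without LPS, where Gm10800 averaged 1860 CPM, against 915 CPM in LPS + 1 µM melatonin. The stretch of 50 bases below, from GENCODE M21 transcripts, is shown because it occurs in 7 of the 9 and in 4 other annotated genes, so that reads from it cannot be given to 1 locus. It carries no capitals, since the whole stretch is what is shared.
Gm21738: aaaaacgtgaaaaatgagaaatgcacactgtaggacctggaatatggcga
The 9 were chosen as sequence-sharing genes called higher at 1 µM than at the mean of LPS with 0.1, 10 and 100 µM melatonin. Their log2 differences there, 2.27 (Gm10717) to 2.81 (Gm26870) with adjusted p-values of at most 0.000165, therefore give no separate support. Gm10721, which holds 50.8% of Gm10718's 50-base stretches, was not among them or called against LPS (0.495, adjusted p of 0.939). Since they share reads, the 9 are not separate observations.

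The other doses under LPS were compared with 1 µM directly, without the LPS libraries. Of the 16988 genes, 18 differed from 0.1 µM (0.106%), 16 of them higher (0.0942%) and 2 lower (0.0118%). From 10 µM 4 genes differed (0.0235%, all higher), and from 100 µM 10 genes (0.0589%, all higher). From the mean of those 3 doses 12 genes differed (0.0706%), 11 higher (0.0648%) and 1 lower (0.00589%). Against 1 mM 1154 genes differed (6.79%), 784 higher (4.62%) and 370 lower (2.18%), but 504 when these groups were fitted alone. Without scaling beyond library totals the split turned, to 398 higher and 979 lower. Without replicate 1, 2 or 3 of LPS + 0.1 µM melatonin 9, 10 and 11 genes differed from that dose, without replicate 2 of LPS + 100 µM melatonin 6 from that one, and without replicate 2 or 3 of LPS + 1 µM melatonin 756 and 729 from 1 mM. Of the 104 genes called against LPS, 8 also differed from 0.1 µM, 3 from 10 µM, 3 from 100 µM and 36 from 1 mM. The LPS + 1 µM melatonin libraries that chose the 104 enter each of these comparisons, so the overlaps give no separate support.

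The 11 genes higher at 1 µM than at the mean of the 3 doses were the 9 linked loci, Eme1 and Gm29216, and the 1 lower was CT010467.1. Gm29216 averaged 13900 CPM at 1 µM, close to 13500 CPM at 10 µM and 12600 CPM in LPS. Its means were 11100 CPM at 100 µM and 6080 CPM at 0.1 µM, and 97.1% of its 50-base stretches also occur in other annotated genes. Eme1, a DNA junction nuclease subunit gene, had 6.19, 8.65 and 9.98 CPM in LPS + 1 µM melatonin, against means of 1.73, 2.36 and 4.25 CPM at 0.1, 10 and 100 µM (log2 difference 1.66 ± 0.36, adjusted p of 0.0266). It missed the threshold under 11 of 21 alternatives, among them without replicate 2 or 3 of LPS + 1 µM melatonin (0.241 and 0.395) and with only these groups fitted (0.494).

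Across LPS and LPS with 0.1, 1, 10, 100 µM and 1 mM melatonin, mean Lars2 was 6670, 2210, 782, 1230, 1350 and 3540 CPM, lowest at 1 µM, and 1 µM lay under 0.1 µM by a log2 difference of -1.50 (adjusted p of 0.0245). That call was lost without 5 of the 6 libraries compared (adjusted p of up to 0.135), and Lars2 was not called against 10 µM (0.977), 100 µM (0.874) or the mean of the 3 doses (0.358). Mean Gm10800 along the same series was 268, 198, 915, 174, 108 and 618 CPM, highest at 1 µM, and 1 µM and 1 mM did not differ past the threshold (adjusted p of 0.392). The rRNA share was 0.631, 0.41, 0.130, 0.215, 0.242 and 0.536% along the series.

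C3ar1 had means of 354, 243, 194, 247, 185 and 138 CPM along the series from LPS alone to 1 mM, and Ucp2 had 419, 574, 673, 603, 637 and 543 CPM. Both stood on the same side of LPS at every dose. Il1b had 299, 92.7, 140, 89.8, 46.5 and 6.07 CPM, and Ptgs2 had 836, 436, 426, 384, 246 and 28.7 CPM. Ftl1-ps1 had 1020, 2150, 2030, 2000, 2370 and 1960 CPM. All doses are set against the same LPS libraries, so the doses are not independent of each other. On that footing the 50 genes that rose at 1 µM had a median log2 fold change over LPS of 0.75, 0.90, 0.69, 0.90 and 0.77 for the 5 doses from low to high, and the 54 that fell had -0.85, -0.97, -0.74, -0.85 and -0.64 in the same order.

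**Figure D5:**
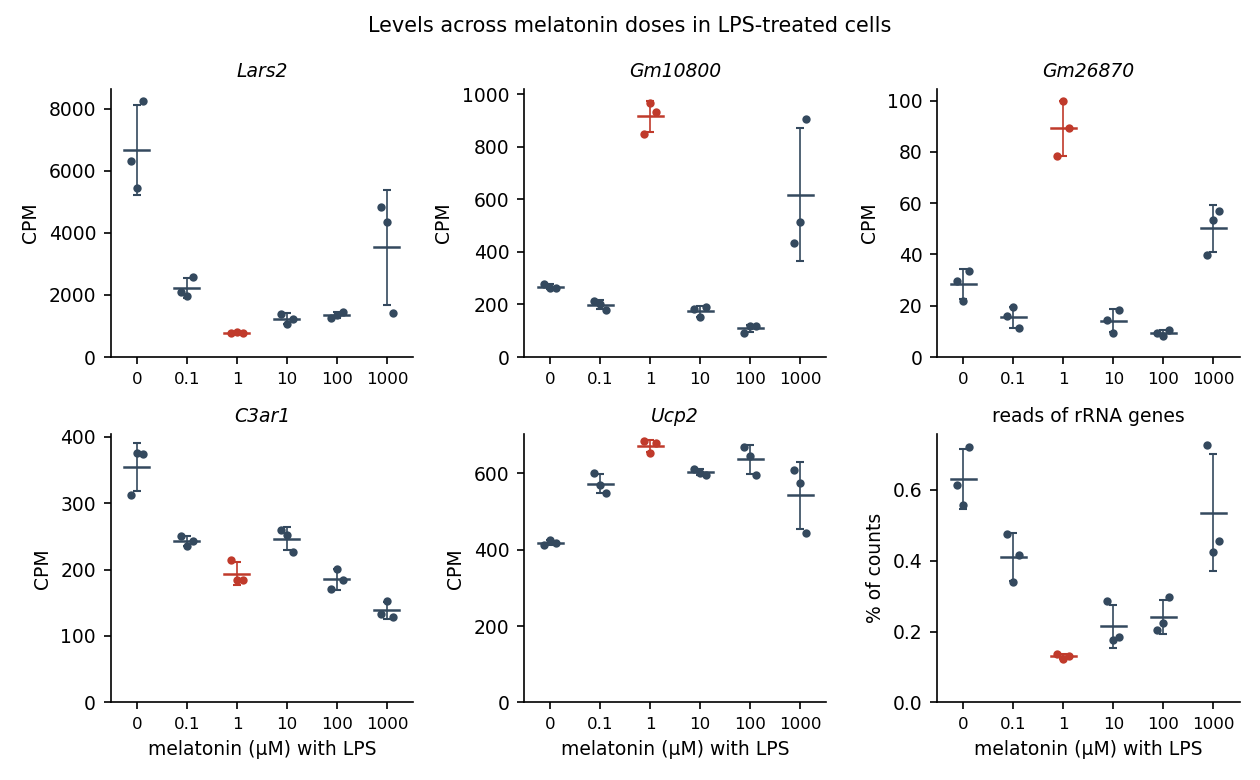
CPM, or percent of counts for rRNA genes, on the y axis against melatonin dose with LPS in µM on the x axis, with 0 for LPS alone, 1 point per library and bars at the mean ± SD of 3. At 1 µM (red) Lars2 at 782 CPM and the rRNA share at 0.130% were the lowest of the 6 groups and Gm10800 at 915 CPM the highest, while C3ar1 at 194 CPM lay above 100 µM and 1 mM and under the other groups, and Ucp2 at 673 CPM had the highest mean, next to 637 CPM at 100 µM.

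Without LPS, 25 genes differed between 1 µM melatonin and solvent (0.147%), 11 higher (0.0648%) and 14 lower (0.0824%). Without the library labelled replicate 1 of 1 µM melatonin 66 differed, 15 of them in common, and without replicate 1, 2 or 3 of solvent 3, 5 and 10 differed. When edgeR fitted these 6 libraries alone it called 0, with 820 at an unadjusted p under 0.05, and DESeq2 over 36 libraries called 77. Nfkbia had 73.9, 115 and 84.6 CPM in 1 µM melatonin and 216, 181 and 136 CPM in solvent (-0.96, adjusted p of 0.00925, and 0.0234 without that library). Tnf had 102, 134 and 94 CPM in 1 µM melatonin and 172, 189 and 159 CPM in solvent (-0.66, adjusted p of 0.03, and 0.0679 without that library). For Tnf the adjusted p was 0.0405 without both libraries whose labels are in doubt. Neither gene's groups overlapped, while under LPS both genes had overlapping groups. The difference between the effects with and without LPS, 0.99 for Nfkbia and 0.60 for Tnf on the log2 scale, did not pass the test (adjusted p of 0.169 for Nfkbia and 0.469 for Tnf).

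Phlda1, a pleckstrin-homology domain gene, had 0, 3.25 and 2.05 CPM in 1 µM melatonin and 12.6, 5.97 and 9.89 CPM in solvent (-2.43, adjusted p of 0.00647, and 0.00473 without the library labelled replicate 1). Ftl2-ps had 468, 572 and 581 CPM in 1 µM melatonin and 301, 299 and 261 CPM in solvent (0.91, adjusted p of 0.00647, and 0.000601 without that library). Prdx6 had 206, 278 and 265 CPM in 1 µM melatonin and 172, 163 and 170 CPM in solvent (0.57, adjusted p of 0.0366, and 0.00375 without that library). Ftl1-ps1 was higher as well (0.78, adjusted p of 0.0127, and 0.000464 without that library). Ftl1-ps1, Ftl2-ps and Prdx6 were thus called higher at 1 µM both with and without LPS, in comparisons that share no library but take their spread from the same fit.

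The interaction, the effect of 1 µM melatonin with LPS less its effect without LPS, passed the test for 8 genes (0.0471%), 3 higher (0.0177%) and 5 lower (0.0294%), and for 0 to 6 genes when 1 of the 12 libraries was left out. Lars2 averaged 782 ± 14.1 CPM in LPS + 1 µM melatonin against 6670 ± 1440 CPM in LPS, and 4690 ± 1370 CPM in 1 µM melatonin against 9070 ± 2890 CPM in solvent (SD, n = 3 each), an interaction of -2.14 ± 0.43 (SE) on the log2 scale with an adjusted p of 0.0429. Aes, a Groucho-family corepressor gene, averaged 54 ± 2.35 CPM in LPS + 1 µM melatonin against 28.8 ± 7.62 CPM in LPS, and 108 ± 9.92 CPM in 1 µM melatonin against 135 ± 4.95 CPM in solvent (SD, n = 3 each), an interaction of 1.24 ± 0.25 (SE) with an adjusted p of 0.0429. Without the library labelled replicate 1 of 1 µM melatonin, 1 gene passed, CT010467.1 (-1.99, adjusted p of 0.0322), and the adjusted p was 0.0516 for Lars2 and for Aes. When both libraries whose labels are in doubt were left out, 9 genes passed, 6 of them among the 8. The adjusted p in that run was 0.0185 for Lars2 and 0.0319 for Aes.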

How the data were processed

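RNA was measured by bulk sequencing in 36 libraries. Trizol-extracted total RNA went into Illumina TruSeq libraries, per the labels' protocols. The submitters' processing notes name cutadapt, featureCounts and the mm10 build, and the authors deposited counts per gene. The aligner, versions, annotation release and strand setting are not given in the sources used here, so overlapping and antisense genes cannot be told apart. The deposited counts are unscaled whole numbers for 53465 genes. FPKM values that the authors also deposited, per the file headers, were used only for their symbols and biotypes. Positions, transcripts and shared 50-base stretches came from GENCODE M21, which matched 53360 identifiers (99.8%).

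Groups follow the labels. edgeR 4.0.16 (R 4.3.3, limma 3.58.1) filtered genes with filterByExpr by group, keeping 16988, scaled libraries by TMM (0.914 to 1.19), and fitted 1 mean per group over all 36 libraries by quasi-likelihood. Tests were two-sided, with Benjamini-Hochberg adjustment over all tested genes and a threshold of 0.05. CPM are TMM-scaled. Differences are log2 values, with LPS + 1 µM melatonin on top and SE taken from the model. A count of 0 in a group was set to a floor of 3 counts over the group for bounds, which cover counting error only. DESeq2 1.42.0, other filters and scalings, the 6 libraries alone and leaving out each library were the alternatives.

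The genes named past the threshold are the 10 highest and 10 lowest log2 fold changes with a mean of 5 CPM or more in 1 group whose libraries did not overlap, leaving out Gm, Rik and clone names, then up to 4 called members of each pathway list and a fixed set of inflammatory genes. Names outside the rule are marked, and the Gm, CT and other loci of the paragraphs on rRNA, repeats and shared sequence were also chosen after their values were seen. Members and lists were chosen with earlier results of these data known. The fit over 36 libraries was also run on simulated counts with changes planted in genes of at least 5 CPM. That run does not cover lower counts, wrong labels or the choice of libraries that set the spread.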

Additional observations from a re-analysis of the deposited data

Results flagged for a closer look

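The effect of 1 µM melatonin differed with and without LPS in 8 genes by edgeR's test of the interaction, which adjusts over all 16988 genes. The naming rule leaves out 3 of them, CT010467.1 (-1.85, adjusted p of 0.0429), Gm20594 (-1.01, adjusted p of 0.0438) and Gm12096 (-1.26, adjusted p of 0.0462), and the other 5 follow. The log2 interaction was 4.98 for Zfpm1 (adjusted p of 0.0429), which averaged 5.88 CPM in LPS + 1 µM melatonin and 0.3 CPM in LPS, against 10.7 CPM in 1 µM melatonin and 18.3 CPM in solvent. It was 6.05 for Alox5, the leukotriene-forming lipoxygenase gene (adjusted p of 0.0429), with 31 counts in LPS + 1 µM melatonin and 1 in LPS, against 160 in 1 µM melatonin and 456 in solvent, so its size rests on 1 count. It was 1.24 for Aes (adjusted p of 0.0429) and -2.14 for Lars2 (adjusted p of 0.0429). It was -0.999 for Pank3, a pantothenate kinase gene of coenzyme A synthesis (adjusted p of 0.0438), which averaged 92 CPM in LPS + 1 µM melatonin and 127 CPM in LPS, against 157 CPM in 1 µM melatonin and 109 CPM in solvent. Without replicate 3 of LPS the adjusted p was 0.0678 for Zfpm1 and for Pank3, 0.136 for Alox5, 0.177 for Aes and 0.106 for Lars2. When both libraries whose labels are in doubt were left out, it was 0.0319 for Zfpm1, 0.0323 for Pank3 and 0.0776 for Alox5. In 6 of the 12 fits that each left out 1 library, 0 genes passed the interaction test with edgeR, and 1320 to 1444 had an unadjusted p under 0.05.

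Eme1 differed between 1 µM and the mean of the 0.1, 10 and 100 µM doses under LPS, with a log2 difference of 1.66 (adjusted p of 0.0266). Its level was 6.19, 8.65 and 9.98 CPM in LPS + 1 µM melatonin.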

How the results depend on the processing

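Of the 104 genes called between LPS + 1 µM melatonin and LPS, 29 passed under every alternative and 0 changed direction. Without the filter on low counts 187 passed, with protein-coding genes alone 41, without both libraries whose labels are in doubt 239, with only the compared groups 415, with DESeq2 281, and without 1 replicate 50 to 81. The fit of the 6 libraries alone gave 172 to 288 without 1 replicate, an alternative chosen after seeing the data. No cause of these differences was tested.

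Between 1 µM melatonin and solvent the count was 89 without a filter, 15 for protein-coding genes, 92 without the doubtful libraries, 77 with DESeq2, 3 to 66 without 1 replicate and 0 when edgeR fitted only these groups, with 820 at an unadjusted p under 0.05. For the interaction it was 5 without scaling, 40 without a filter, 9 without the doubtful libraries, 23 with DESeq2 and 0 to 6 without 1 replicate. Against 0.1 µM it was 30 with DESeq2 and 9 to 14 without 1 replicate. Against 10 µM it was 17 without a filter, 8 without the doubtful libraries, 16 with only these groups and 15 with DESeq2. Against 100 µM it was 36, 22, 61 and 16 under the same 4 settings, and 6 to 15 without 1 replicate. Against 1 mM it was 504 with only these groups and 729 to 1173 without 1 replicate, and without scaling the split was 398 higher and 979 lower. Against the mean of 0.1, 10 and 100 µM it was 19 without a filter, 29 with only these groups and 20 with DESeq2. For genes raised by LPS at least 4-fold the median was -0.134.

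The replicate numbers did not pair the libraries: same-numbered libraries of the 2 groups deviated from their group means with correlations of 0.002, 0.006 and 0.024. With the replicate block the main count was 97, the count without LPS 20 and the interaction count 5. Depth limits low genes, since at 1 to 10 CPM 0.707% of fold changes had an interval within 2-fold.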
